A study of Mus musculus with 5 samples.

Results

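The genes described here encode the enzymes that take methyl and acetyl groups off histones, together with their closest relatives. They were chosen by name from the count table: all symbols that begin with Kdm, Hdac or Jmjd and a digit, the sirtuins Sirt1 to Sirt7, and Phf2 and Phf8, with a coding sequence (CDS) under 8000 nt. The rule found 42 genes of 10329, of which 24 are demethylases or other JmjC-domain proteins and 18 are deacetylases. The length limit removed 0 genes, since the longest member, Jmjd1c, has a CDS of 7593 nt and the shortest, Jmjd8, one of 816 nt. The rule itself uses names and lengths, not measured values.

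Lysine demethylases work by one of 2 chemistries. Kdm1a and Kdm1b are flavin-dependent amine oxidases, while the JmjC enzymes are iron- and oxoglutarate-dependent oxygenases, and each subfamily acts on particular lysines of histone H3. Deacetylases of the Hdac classes use zinc and sit mostly in corepressor complexes, whereas sirtuins use NAD and are spread over nucleus, cytosol and mitochondria. In the brain these enzymes shape neuronal gene programs, and human mutations in several of them, such as KDM5C, PHF8 and HDAC4, cause intellectual disability.

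Ribosome footprints, the mRNA pieces that ribosomes shield from RNase, were counted in acute brain slices (hippocampus with cortex). The mice were C57BL/6N males of wild-type genotype, aged 28 to 35 days. Slices 400 µm thick recovered for 3 to 4 h and were then exposed to homoharringtonine (HHT) at 20 µM for 0, 5, 10, 30 or 60 min, with 1 library per time. HHT stops ribosomes that have just initiated, while those further along can finish and leave, so the footprints left on an mRNA report how far its ribosomes have run off. Each pool held 10 slices from 2 to 3 mice, and no library of vehicle (0.05% DMSO) at the later times was analysed here, so time on HHT and time after slicing cannot be told apart.

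Total counts were between 1346175 and 2787749 in the treated libraries, against 7155147 at 0 min, so counting error was widest late in the series. The slices held mixed cells: summed TPM at 60 min was 7243 over 9 neuronal markers, 3140 over 6 astrocyte markers, 2738 over the 5 oligodendrocyte markers found of 6, 53 over 6 microglial markers and 53 over 5 endothelial markers. The same sums at 0 min were 6099, 4514, 7761, 356 and 66. One defining neuronal gene, Snap25, is listed at 0 in every library, while Camk2a and Syt1 had 3053 and 1144 TPM at 0 min. Fewer cells of a type and fewer footprints per cell cannot be told apart in such tissue.

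Before HHT, the median deacetylase had more footprints per kilobase than the median demethylase, and single genes ranged widely in both sets. No test was made between them. The measure is the footprint signal, counts per kilobase of the CDS without its 600 excluded nucleotides, from 1 library at 0 min. The median was 254 counts per kilobase over the 18 deacetylases, 109.7 over the 24 demethylases and JmjC proteins, and 221 over all genes.

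The highest signal belonged to Sirt2 (2019 counts per kilobase), a mainly cytosolic sirtuin that is abundant in myelin-forming cells. It was followed by Hdac11, the only class IV deacetylase, at 1146, by Jmjd8, a JmjC protein of the endoplasmic reticulum, at 1005, and by Hdac2, the class I enzyme of the Sin3, NuRD and CoREST complexes, at 954. Hdac1, the close partner of Hdac2 in those complexes, had 265. Jmjd8 has the shortest CDS of the members, 816 nt, so its signal rests on few nucleotides once 600 are excluded. Among demethylases, Kdm1a, the LSD1 enzyme of CoREST that removes methyl groups from H3K4, stood highest at 500. The Kdm4 enzymes for trimethylated H3K9 and H3K36, Kdm4b and Kdm4a, had 355 and 344, and Kdm5b, an H3K4 demethylase, had 340.

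The lowest signals were those of Kdm4d (15.0), Hdac7 (20.7), Hdac10 (27.8), Kdm8 (34.1) and Kdm5d (36.6). Kdm5d lies on the Y chromosome and is the partner of the X-linked Kdm5c, which had 111. The sources used here do not say how reads shared by such close copies were divided, so the split between Kdm5c and Kdm5d, and between Hdac1 and Hdac2, is uncertain.

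**Figure D1:**
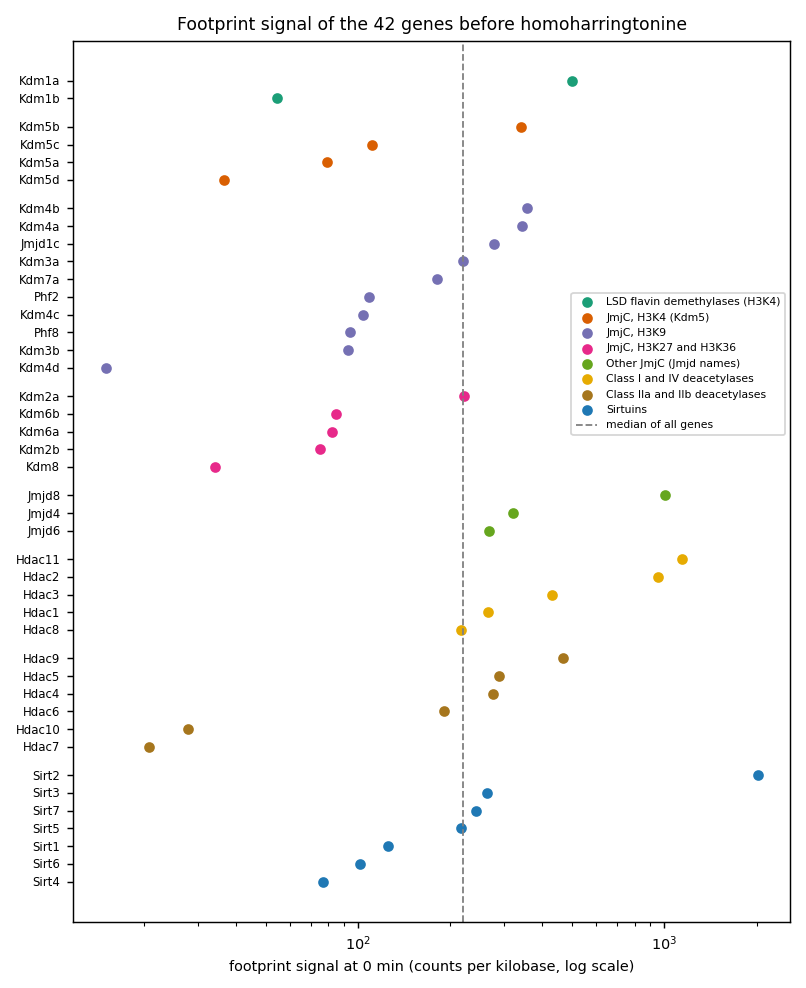
Footprint signal at 0 min (counts per kilobase, log axis) of each of the 42 genes, 1 point per gene from 1 library, grouped and coloured by role, with the median of all 10329 genes (221) as a dashed line. Sirt2 lies highest at 2019 and Kdm4d lowest at 15.0.

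After HHT, the footprint signal fell on every member, and footprints lasted longer on the long demethylase mRNAs than on the short deacetylase mRNAs. Remaining signal means the deposited signal at a time divided by that at 0 min, so it is a linear ratio on the authors' library scale. Its median at 5, 10, 30 and 60 min was 0.451, 0.299, 0.220 and 0.170 over the 42 members, beside 0.333, 0.268, 0.223 and 0.181 over all genes. The 24 demethylases and JmjC proteins had medians of 0.476, 0.439, 0.228 and 0.191, and the 18 deacetylases 0.255, 0.215, 0.178 and 0.151. The ratio was under 0.5 in 30 of 42 members at 5 min (78.1% of all genes) and in 34 at 10 min (84.3%). At 30 and 60 min all 42 members were below 0.5, where 95.4% and 97.3% of all genes also were.

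A slope on log2(minutes + 1), fitted to all genes with the deposited library factors, called 39 of 40 members lower and 0 higher (quasi-likelihood test of edgeR, adjusted p under 0.05 after Benjamini and Hochberg; 39 lower and 0 higher at an unadjusted p under 0.05). The background for that call is 94.2%, so the share of members is near that of all genes. At an unadjusted p under 0.05 by the same test, 8929 of 9444 genes were lower and 0 higher. The member with no call was Kdm8 (slope -0.22, SE 0.121, adjusted p = 0.0984), which had only 22 counts at 0 min. Kdm4d and Sirt4 had too few counts to enter. With time in minutes in place of its logarithm, 0 of 40 members were called (0.254% of all genes), and without the 0 min library 24 of 38 (47.7% of all genes).

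**Figure D2:**
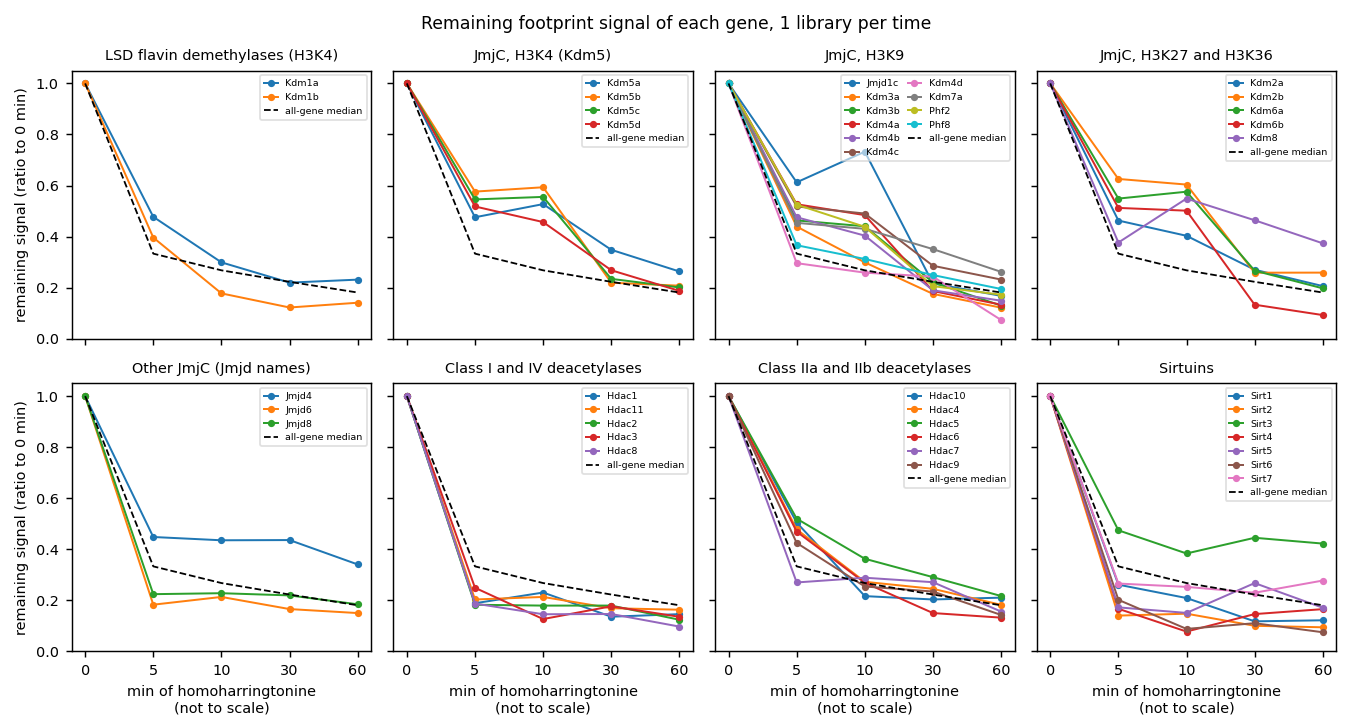
Remaining footprint signal (ratio to 0 min, linear axis) against minutes of homoharringtonine (evenly spaced, not to scale), 1 line per gene and 1 panel per role, with the median of all genes dashed. All Kdm5 and Kdm6 demethylases lie above the dashed line at 5 and 10 min, while Kdm1b is below it at 10 min (0.178). Class I deacetylases are at 0.249 or lower from 5 min on.

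The H3K4 demethylases of the Kdm5 family had remaining signals between 0.476 and 0.576 at 5 min and between 0.457 and 0.593 at 10 min. Kdm5b (chromosome 1, 134560178 to 134632878 in GRCm38) had, in time order, 1370, 762, 673, 265 and 277 counts. Kdm5c had 450, 237, 207, 93 and 88 counts at the same 5 times. In both genes the counts at 30 and 60 min lay well below those at 5 and 10 min. The remaining signal was about the same at 10 min as at 5 min (0.593 and 0.576 for Kdm5b, 0.555 and 0.546 for Kdm5c). These small differences between single libraries were not tested.

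Kdm5a, the retinoblastoma-binding member of the family, has a similar CDS of 5073 nt but a flatter late course. Its counts were 355, 163, 155, 109 and 91 in time order, and its remaining signal at 60 min was 0.263, with a 95% counting interval of 0.207 to 0.332. Kdm5d had 148, 74, 56, 35 and 27 counts and a remaining signal of 0.187 at 60 min (0.120 to 0.284).

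The 2 H3K27 demethylases differed late rather than early. Kdm6b (chromosome 11, 69398508 to 69420367), an enzyme known to be induced by inflammatory and developmental signals, had 366, 181, 152, 43 and 33 counts in time order. Its X-linked relative Kdm6a had 302, 160, 144, 71 and 58. At 5 and 10 min their remaining signals were 0.512 and 0.502 for Kdm6b and 0.549 and 0.576 for Kdm6a. At 60 min Kdm6b had 0.0926 (0.0628 to 0.132) and Kdm6a 0.197 (0.146 to 0.262), and these counting intervals do not overlap. A test of the difference between the 2 genes was not run.

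The H3K9 group holds the longest member. Jmjd1c, a relative of the Kdm3 enzymes, had 1945, 1150, 1180, 371 and 318 counts, so its count at 10 min was as high as at 5 min although the 10 min library is smaller; its remaining signal in the first 3 treated libraries was 0.613, 0.733 and 0.216. Kdm4a had 893, 454, 358, 147 and 116 counts, and Kdm4b 945, 434, 316, 158 and 137. Their relative Kdm4c had 266, 133, 108, 67 and 60 counts and kept more at 60 min, 0.232 (0.172 to 0.308) beside 0.133 (0.109 to 0.162) for Kdm4a.

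Kdm3a, which removes mono- and dimethyl marks from H3K9, had 743, 315, 184, 115 and 88 counts. Among members of its role group with at least 100 counts at 0 and 60 min together it had the lowest relative fold at 60 min, a log2 fold of -0.58 (-0.92 to -0.26). Kdm3b had 436, 195, 159, 85 and 55 counts and a remaining signal of 0.130 at 60 min. These log2 folds are relative to the typical mRNA, because TMM scaling sets that to about 0, and they use a prior count of 2.

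At the other end of the H3K9 group was Kdm7a, a PHD-finger demethylase, with 404, 177, 144, 125 and 103 counts and a log2 fold of 0.52 (0.20 to 0.84) at 60 min. Its relative Phf2 had 292, 148, 106, 53 and 49 counts, and Phf8 232, 82, 60, 51 and 44. At 5 min Phf8 was at 0.366, below the 0.503 that was the median of the 500 genes nearest to it in CDS length. Kdm4d, with 14, 4, 3, 3 and 1 counts, gives no usable course: its interval at 60 min was 0.00174 to 0.482.

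Of the enzymes linked to H3K36, Kdm2b had 250, 151, 125, 57 and 63 counts and Kdm2a 638, 285, 213, 152 and 128. Both bind CpG islands through a CXXC domain. Kdm2b had a remaining signal of 0.626 at 5 min, the highest of all 42 members then, and 0.604 at 10 min. Kdm8 had 22, 8, 10, 9 and 8 counts, and its remaining signal of 0.374 at 60 min had an interval of 0.144 to 0.871.

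The flavin-dependent pair had lower remaining signal at 10 min than most of the long JmjC mRNAs. Kdm1a had 981, 452, 243, 190 and 221 counts, with remaining signals of 0.477 at 5 min and 0.299 at 10 min. Kdm1b had 102, 39, 15, 11 and 14 counts, with 0.396 and 0.178. Their CDS lengths are 2562 and 2481 nt.

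JmjC proteins whose main substrates lie outside histone lysines include Jmjd6, a nuclear hydroxylase, and Jmjd4, which hydroxylates the translation termination factor eRF1. Jmjd4 had 208, 90, 75, 80 and 69 counts, and its remaining signal was nearly level after 5 min, at 0.448, 0.435, 0.436 and 0.341. Jmjd6, with a similar CDS (1212 nt, beside 1248 nt for Jmjd4), had 164, 29, 29, 24 and 24 counts and was at 0.183 by 5 min. Jmjd8 had 217, 47, 41, 42 and 39 counts. A further JmjC gene, Jmjd7, appears only in the TPM table, at 2, 2, 0, 1 and 1 TPM, and is no member.

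Class I deacetylases had lost most of their footprints by the first time point. Hdac2 had 827, 146, 123, 131 and 100 counts, Hdac1 225, 41, 43, 27 and 32, and Hdac3, the NCoR and SMRT enzyme, 295, 71, 31, 46 and 39. Remaining signal at 5 min was 0.183 for Hdac2, 0.189 for Hdac1, 0.249 for Hdac3 and 0.188 for Hdac8. Hdac8 had 116, 21, 14, 15 and 11 counts and was lowest of the group at 60 min, with a log2 fold of -0.85 (-1.94 to -0.01). Hdac11 had 509, 100, 90, 76 and 81 counts.

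Class IIa deacetylases shuttle between nucleus and cytoplasm and repress Mef2 target genes. Hdac5 had 795, 399, 239, 204 and 168 counts, Hdac4 726, 335, 164, 157 and 129, and Hdac9 546, 224, 115, 113 and 76. At 5 min Hdac5 and Hdac4 were at 0.520 and 0.478. The table lists Hdac9 by a transcript with a CDS of 1767 nt, well short of the 2817 to 3348 nt of the other 3; Hdac9 is also known for a splice form that lacks the catalytic domain. At 5 min Hdac9 was at 0.425, where the 500 genes nearest to 1767 nt had a median of 0.317. Which of its transcripts the footprints came from was not tested.

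Hdac6, the cytoplasmic class IIb deacetylase of tubulin, had 543, 246, 121, 72 and 70 counts. Hdac6 and Hdac4 were alike in remaining signal at 10 min (0.269 and 0.273) and apart at 30 min (0.150 and 0.245), a difference that was not tested. Hdac7 and Hdac10 were thin, with 7 and 8 counts at 60 min, against 46 and 39 at 0 min.

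At 60 min the sirtuins ranged between 0.0752 and 0.423 in remaining signal, the widest range of the role groups. The low end was Sirt6, which had only 3 counts at 60 min and an interval of 0.0149 to 0.236. Sirt2 (chromosome 7, 28766752 to 28788665) had 1151 counts before HHT and then 156, 141, 102 and 106. Its remaining signal of 0.140 at 5 min was the lowest of the 42 members at that time. Its log2 fold at 60 min was -0.94 (-1.25 to -0.66). Oligodendrocyte markers also fell, but on another course. Their 5 measured members had a median log2 fold of -0.58 at 5 min and -1.36 at 60 min, where Sirt2 had -1.20 and -0.94. At 60 min 5 of 5 were below 0, and their summed TPM was 2738 against 7761 at 0 min. Astrocyte and microglial markers were below 0 at 60 min as well (6 of 6 in each set), beside 3 of 8 neuronal and 3 of 4 endothelial ones. The part of any of these cell types in the Sirt2 values was not tested.

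Sirt3 (chromosome 7, 140863663 to 140882309), a mitochondrial deacetylase of metabolic enzymes, had 107, 49, 34, 42 and 44 counts. All 4 later counts lay within 34 to 49, and the remaining signal was 0.474, 0.384, 0.445 and 0.423. At 60 min the counting interval was 0.290 to 0.605. The fall in remaining signal passed the test (slope -0.21, SE 0.0887, adjusted p = 0.0380 by edgeR), a call that was lost without the 0, 10, 30 or 60 min library. Its log2 fold at 60 min, 1.17 (0.67 to 1.73), was the only one to reach 1 among 35 members with 100 or more counts summed over the pair of libraries, where 4.57% of all genes did. None reached -1 at 60 min, where 4.96% did.

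The other mitochondrial sirtuins, Sirt4 and Sirt5, had 5 and 12 counts at 60 min, against 31 and 72 at 0 min. Of the nuclear ones, Sirt1 had 202, 51, 35, 21 and 24 counts, Sirt7 148, 38, 31, 30 and 40, and Sirt6 41, 8, 3, 4 and 3. Sirt7 kept 0.278 at 60 min (0.191 to 0.396) and Sirt1 0.122 (0.0764 to 0.187).

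**Figure D3:**
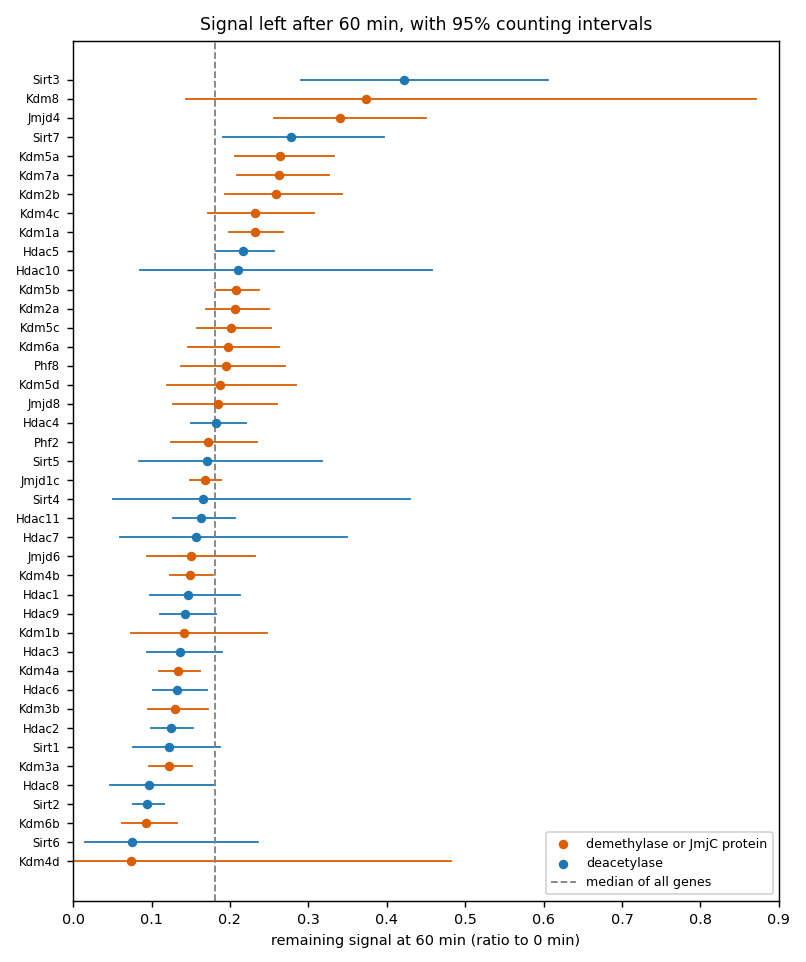
Remaining signal at 60 min (ratio to 0 min, linear axis) of each of the 42 genes, sorted, with exact 95% counting intervals as lines, demethylases and JmjC proteins in orange, deacetylases in blue and the median of all genes (0.181) dashed. Sirt3 is highest at 0.423, and Sirt2 and Kdm6b are at 0.0946 and 0.0926.

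By 60 min the order of the members no longer followed their length. Relative to the typical mRNA, the counting interval of the log2 fold lay above 0 for 8 members and below 0 for 10, and it included 0 for the rest. Such intervals were computed for members only, so these counts have no background share over all genes. Earlier, 0 of 35 members reached 1 at 5 min (background 7.15%) and 1, Sirt2, reached -1 (5.37%). At 10 min 5 members reached 1 (13.2%), namely Jmjd1c, Kdm2b, Kdm5b, Kdm6a and Kdm5c, all with a long CDS, and Hdac3 reached -1 (5.64%). At 30 min 0 reached 1 (3.96%) and Sirt2 reached -1 (4.37%).

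Neighbours in the order of remaining signal mostly have overlapping intervals, as the plot of signal left after 60 min shows. Across the 42 members, Spearman's rho between CDS length and remaining signal was 0.791, 0.759, 0.195 and 0.079 at the 4 treated times, where all genes had 0.700, 0.474, 0.129 and 0.073. These are descriptions across genes that share the same 5 libraries, with no p-value.

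The 19 members with a CDS of 3000 nt or more had median remaining signals of 0.518, 0.457, 0.234 and 0.187. The 15 members under 1500 nt had 0.202, 0.214, 0.177 and 0.164, and the 8 between had 0.411, 0.257, 0.227 and 0.150. Long members thus held more at 5 and 10 min, and the 3 sets were close together at 60 min. Set against the 500 genes nearest in CDS length, 14, 17 and 18 of 42 members were above their neighbours' median at 5, 10 and 60 min. The median quotient of a member to its neighbours was 0.919, 0.955 and 0.930.

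Between the early pair of libraries (5 and 10 min) and the late pair (30 and 60 min), 12 of 38 members tested became lower relative to other mRNAs and 0 higher (edgeR quasi-likelihood test on 4 libraries, adjusted p under 0.05 over 8631 genes; 12 lower and 2 higher at an unadjusted p under 0.05). The background is 14.3% for lower calls and 4.6% for higher ones. At an unadjusted p under 0.05 by the same test, 1740 of the 8631 genes were lower and 1030 higher. Of the 12, 11 were JmjC demethylases, and Hdac6 was the one deacetylase. All 12 have a CDS of 3000 nt or more, which makes 12 of 19 such members (63.2%), while 56.1% of all genes with 3000 to under 8000 nt were called lower; below 3000 nt 0 of 19 members were called, and 4.21% of all genes. The share among long members is therefore near that of other long mRNAs. The p-values weigh the difference of late and early libraries against the spread within each pair. The 2 times of a pair are not replicates of one condition, so that spread includes any change between them.

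The steepest drop was that of Kdm6b, with a log2 difference of -1.61 for 30 and 60 min over 5 and 10 min (SE 0.245, adjusted p = 2.81e-05 by edgeR). Jmjd1c followed with -1.27 (SE 0.200, adjusted p = 4.03e-05 by edgeR), then Kdm4a with -1.11 (SE 0.201, adjusted p = 1.88e-04 by edgeR), and Kdm5b with -0.89 (SE 0.195, adjusted p = 0.0013 by edgeR). Kdm3b, Kdm4b, Hdac6, Phf2, Kdm5c, Kdm3a, Kdm6a and Kdm2b had -0.82, -0.82, -0.80, -0.78, -0.78, -0.75, -0.73 and -0.68, all called, with edgeR adjusted p between 0.0034 and 0.0412. Both late counts were below both early counts in each of the 12 genes, and the late libraries were also the smaller ones.

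The count of 12 depends on single libraries. Without the 30 min library 3 members were called (Jmjd1c, Kdm4a and Kdm6b) and 4.12% of all genes. Without the 60 min library 2 were called (Jmjd1c and Kdm6b) and 2.57% of all genes. Each of these fits had 1 residual degree of freedom. The log2 differences of the 12 kept their sign in each of these fits.

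Set against their neighbours in length, members went both ways: 18 were below and 20 above the median of the 500 nearest genes. Kdm6b was 0.74 log2 units below its neighbours' median of -0.87, and Kdm4a 0.60 below its neighbours' -0.50. Kdm5a, at -0.16 (SE 0.222, adjusted p = 0.650 by edgeR), was 0.72 above its neighbours' median of -0.89. Kdm7a and Phf8, at 0.03 and -0.05, were each 0.42 above theirs. These gaps are descriptions of single genes and carry no test.

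**Figure D4:**
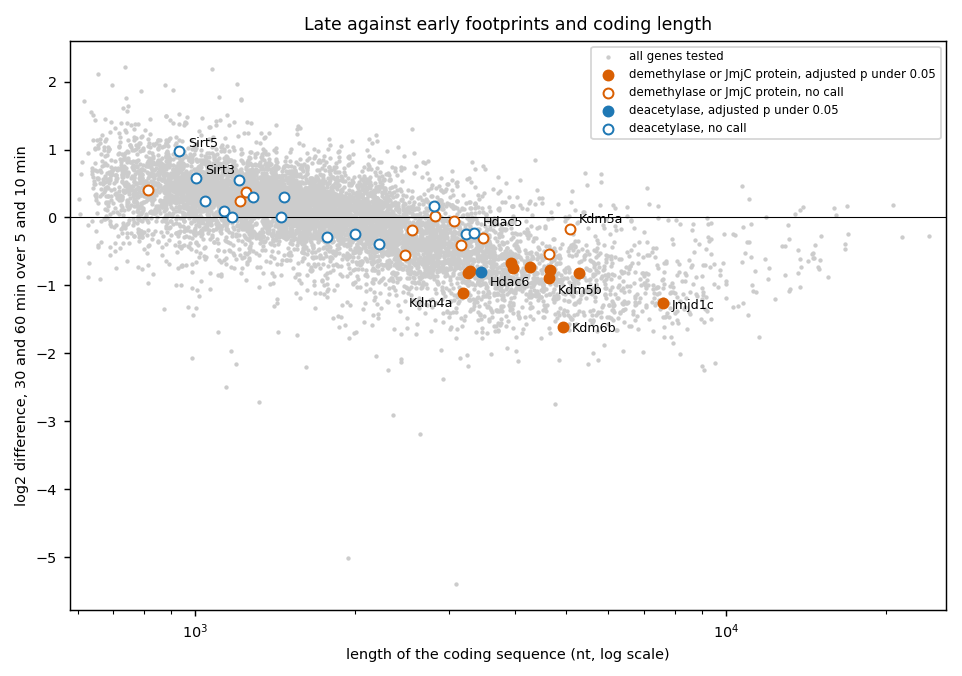
Log2 difference of 30 and 60 min over 5 and 10 min (edgeR fit, TMM scaling) against the length of the coding sequence (nt, log axis), with all 8631 genes tested in grey, demethylases and JmjC proteins in orange and deacetylases in blue; filled points have an adjusted p under 0.05. The 12 called members lie at the long end, and Kdm6b is lowest at -1.61.

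Among sirtuins, no member was called in that comparison. Sirt5, Sirt3 and Sirt7 had log2 differences of 0.98 (SE 0.448), 0.59 (SE 0.285) and 0.55 (SE 0.310), with edgeR adjusted p of 0.126, 0.153 and 0.225. Their CDS lengths are 933, 1005 and 1209 nt, and the medians of their neighbours in length were 0.42, 0.38 and 0.30. With the deposited library factors in place of TMM, a scale that moves the median of all genes to -0.54 against 0.028, the differences of Sirt5, Sirt3 and Sirt7 were 0.42, 0.011 and -0.030.

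The slope over all 5 libraries relative to other mRNAs called 0 of 40 members in either direction (edgeR quasi-likelihood test, adjusted p under 0.05), where 0.0106% of all genes were called lower and 0% higher; DESeq2 also called 0. At an unadjusted p under 0.05, 646 of 9444 genes were higher and 513 lower. The 2 members among the higher were Sirt3 (slope 0.20, SE 0.060, adjusted p = 0.227) and Jmjd4 (0.17, SE 0.059, adjusted p = 0.284, both by edgeR). The 2 among the lower were Sirt2 (-0.17, SE 0.067, adjusted p = 0.354) and Sirt6 (-0.24, SE 0.105, adjusted p = 0.395, both by edgeR). Without the 0 min library 8 of 38 members were called lower, in a fit that called 894 of 8631 genes lower. All 8 are among the 12 named above, and in that fit the slope of Sirt2 was 0.038.

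The proteins that work with or against these enzymes were counted in the same late against early comparison, for which the backgrounds are those given above. Subunits of the deacetylase and LSD1 corepressor complexes (37 measured of 41 listed) had 12 of 35 tested members lower in the late libraries and 0 higher. Chd4, the remodelling ATPase of NuRD, and Arid4b, of the Sin3 complex, were called with log2 differences of -1.40 and -1.36. Among genes of the list with at least 100 counts at 0 and 60 min together, a limit kept for the other lists too, the highest log2 fold at 60 min was that of Tbl1x, of the NCoR complex (0.66).

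Histone acetyltransferases and their partners (19 of 19 measured) had 11 of 19 lower and 0 higher, led by Trrap, the giant scaffold, at -1.76, and the acetyltransferase Kat6a, at -1.47. Their log2 folds at 60 min ran between 0.51 for Ep400 and -0.81 for Kat7. Histone lysine methyltransferases (26 measured under 38 listed names, older symbols included) had 7 of 24 lower and 1 higher. Kmt2e and the H3K9 methyltransferase Ehmt2 were called at -1.36 and -1.31, while Setd7, a short-CDS enzyme of 1101 nt, was the 1 gene that rose (0.72). At 60 min Kmt2b was highest at 1.17 and Kmt2e lowest at -0.54. Median CDS lengths were 1584 nt for corepressor subunits, 3657 nt for acetyltransferases, 4126 nt for methyltransferases and 2690 nt for the 42 members, beside 1626 nt for all genes.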

How the data were processed

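Footprints were measured in 5 libraries, 1 per time on HHT. The tools named in the submitters' processing notes are TopHat2 2.0.9, Bowtie2 2.1.0, cutadapt 1.7.1, SAMtools 0.0.19 and Trimmomatic 0.32, with the mm10 build. The role of each tool is not stated, nor is the division of reads between near-identical genes. The authors deposited RSEM expected counts per gene over the CDS without its ends, per the deposited table's own name, whole numbers in all cases. The deposited signal is the count per kilobase of the CDS less 600 nt, divided by 1 factor per library (1, 0.965, 0.828, 0.882 and 0.973 in time order), whose origin is not given. The deposited ratio of signals equals the one computed here within 1.1e-14. A second deposited table gives a score, TPM rounded to whole numbers. All 42 transcripts matched GRCm38.p6, the source of gene positions.

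Fits used edgeR 4.0.16 in R 4.3.3 on all genes with a mean of at least 10 counts, TMM scaling or the deposited factors, and Benjamini-Hochberg adjustment over all genes tested. Self-tests on simulated counts were run first. Intervals are exact 95% conditional binomial intervals on counts; reads carry no stated molecular identifiers, so they cover counting error only. Alternatives were DESeq2 1.42.0, its size factors, no filter, time in minutes, a scale of 6 mitochondrially encoded genes, a prior count of 0.5, TPM and leaving out each library. Genes nearest in CDS length are the 500 with the smallest difference in log length. Values in every library are given for members called relative to other mRNAs. In each role group they are also given for the highest and lowest log2 fold at 60 min among members with at least 100 counts. For many other members they are given too, without such a rule. From the lists of partner genes, the same extremes and up to 2 called genes per direction are named, except 1 that is not reported here. The members and lists were chosen with earlier results of these data known. No sequences are shown, since no protein or coding sequence was used here.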

Additional observations from a re-analysis of the deposited data

How the results depend on the processing

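For the late against early comparison, the 12 members called lower were the same 12 without the filter on low counts and with DESeq2 size factors in edgeR; DESeq2's Wald test called 8, all among the 12. With the deposited library factors 21 of 38 members and 31.6% of all genes were called lower, since that scale moves the median of all genes to -0.54, against 0.028 under TMM, and the log2 difference of Sirt7 turned to -0.030. Leaving out 1 library gave 2 to 16 members called lower, the low values without the 60 and the 30 min library (2 and 3). For the loss of remaining signal, 39 members were also called with mitochondrially encoded genes as the scale and 41 without the filter; time in minutes gave 0. Leaving out 1 library gave 24 to 40, the low value without the 0 min library; the call of Sirt3 ended without the 0, 10, 30 or 60 min library and with time in minutes (adjusted p between 0.0570 and 0.882). For the relative slope, leaving out 1 library gave 0 to 8 members called lower, the 8 without the 0 min library, where the slope of Sirt2 turned to 0.038 (-0.23 to 0.038 over these fits). The median log2 fold of the members at 5 min was 0.46, and -0.10 once the median of genes of similar CDS length was taken off. With TPM the medians at 5, 10, 30 and 60 min were 0.26, 0, -0.24 and -0.21, and over members with at least 100 counts 0.50, 0.45, -0.036 and -0.078, against 0.46, 0.17, -0.035 and -0.10. Members called higher numbered 0 in every fit run. No paired analysis was possible because each time has 1 library. With 11 to 318 counts at 60 min for most members, and under 10 for 6 of them, late differences of single genes are limited by depth.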
